A study of Mus musculus with 4 samples.

Results

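Cohesin is a ring of SMC1, SMC3 and a kleisin subunit that holds sister chromatids together and extrudes loops of chromatin. A STAG protein binds the kleisin, and NIPBL loads the ring onto DNA. Dividing somatic cells use the SMC1A, RAD21, STAG1 and STAG2 forms, whereas germ cells in meiosis also use SMC1B, REC8 and STAG3; cohesin genes, STAG2 above all, are recurrently mutated in human myeloid leukemia. The genes described here are these 8 subunits and the loader: Smc1a, Smc3, Rad21, Stag1, Stag2, Nipbl, Stag3, Smc1b and Rec8. Together they make 9 of the 18193 genes that have a probe set with a single gene symbol on the Mouse Genome 430 array.

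Stag3 was selected on its measured rise in these same arrays, so its values are given as a description, with no test. The other 8 were taken as the rest of the family by function, with results of the same contrast already known. Each is reported through every one of its probe sets, 24 in all: 6 for Stag1, 5 for Nipbl, 3 each for Smc1a and Rad21, 2 each for Smc3 and Stag2, and 1 each for Stag3, Smc1b and Rec8. All 9 genes matched the RefSeq gene table of the mouse assembly GRCm38.p6 by gene identifier.

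The study measured RNA of mouse leukemic cells transformed with MLL-AF9, a fusion gene of acute leukemia, after their purification from the bone marrow of C57BL/6 recipients. One group of 2 arrays holds cells labelled wild type, from recipients repopulated with wild-type marrow. The other group of 2 arrays holds cells labelled Ezh2 KO; Ezh2 is the enzyme of Polycomb repressive complex PRC2 that methylates histone H3. For that second group a protocol entry of the labels says that the recipients were repopulated with Ink4a-/-Arf-/- marrow cells, which conflicts with the genotype entry, and the group is called Ezh2 KO here after its genotype entry. Whether the 2 samples of a group are different mice or different leukemias is not stated in the labels. A p-value here therefore reflects the spread of these samples alone, possibly a technical spread, and the number of arrays limits its precision. Values are linear probe set intensities, and means are given ± SD over n = 2 arrays. Log2 changes are of intensity plus 16, Ezh2 KO minus wild type, which understates the change of dim probe sets. A permutation of 2 arrays against 2 cannot give an exact two-sided p below 0.333, so calls rest on a limma fit over all 31526 probe sets whose mean intensity exceeded 21.9.

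The single Ezh2 probe set read 5216 and 5315 on the wild-type arrays and 4989 and 4991 on the Ezh2 KO arrays. Its position relative to the deleted part is not known here, so this checks nothing about the labels. Of 9 myeloid marker genes on the array, all 9 passed the intensity filter, with summed intensities of 64095 to 65289 in the wild type and 69583 to 72713 in Ezh2 KO. Limma called 4 of their 15 probe sets (26.7%, against 7.31% of all probe sets tested). Itgam, an integrin of myeloid cells, rose from 1134 ± 48.7 to 1902 ± 126 (log2 change 0.74, adjusted p = 0.00109). A probe set of Csf1r, a receptor of the monocyte line, rose from 3042 ± 20.4 to 4274 ± 437 (0.48, adjusted p = 0.0072). The other Csf1r probe sets, 1419873_s_at and 1423593_a_at, were not called (0.10 and 0.39, limma adjusted p = 0.653 and 0.105). The mean of the Csf1r probe sets had 0.33 (adjusted p = 0.0612). Cebpa, a myeloid transcription factor, fell from 830 ± 108 to 530 ± 3.63 (-0.63, adjusted p = 0.0116; 0.0634 without wild-type replicate 2). A probe set of the leukemia-linked homeobox gene Meis1, at 0.31 (adjusted p = 0.0443), lost its call when any 1 of the arrays was left out (adjusted p of 0.0899 to 0.163). With median centring the calls of Csf1r and Meis1 were lost (adjusted p = 0.0731 and 0.343). The other Meis1 probe sets, 1450992_a_at and 1459423_at, had -0.01 and -0.17, and the mean of the Meis1 probe sets had 0.04 (limma adjusted p = 0.847). Further lists marked cells that the marrow could also hold, and limma called 0 of their probe sets, with 1 at an unadjusted p under 0.05. The T cell list summed to 199 to 284 in the wild type and 215 to 340 in Ezh2 KO, with Cd3d, Cd3g and Cd4 below the filter. The B cell list summed to 814 to 838 and 861 to 972 with Cd79a below it, the erythroid list to 248 to 254 and 185 to 258 with Alas2 below it, and the stromal and endothelial list to 590 to 683 and 518 to 668 with Col1a1 below it. Most of the B cell sum was the Cd79b probe set, at 763 and 739 in the wild type and 761 and 848 in Ezh2 KO. The largest part of the stromal and endothelial sum was Pecam1, at 390 and 381 in the wild type and 240 and 317 in Ezh2 KO. Pecam1 was also the probe set with an unadjusted p under 0.05 (-0.46, limma adjusted p = 0.122). The part of the differences in myeloid markers, and of other cells, in the results was not tested.

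Stag3, the STAG subunit of meiotic cohesin, lies on chromosome 5 of GRCm38.p6, where the gene table spans 138272514 to 138312397. Its promoter is shown because the Stag3 signal differs most between the groups among the 9 genes. The sequence below is chr5:138280259-138280518 on the plus strand in the RefSeq promoter table for GRCm38.p6. It holds the 250 bases before an annotated start, 138280509, and the first 10 bases from it. That start lies within the gene span and not at its first base, so the window describes this start only. Capitals mark a match to CACGTG, the E-box letters, and a match to TTCCCGC, letters bound by E2F factors.

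Stag3: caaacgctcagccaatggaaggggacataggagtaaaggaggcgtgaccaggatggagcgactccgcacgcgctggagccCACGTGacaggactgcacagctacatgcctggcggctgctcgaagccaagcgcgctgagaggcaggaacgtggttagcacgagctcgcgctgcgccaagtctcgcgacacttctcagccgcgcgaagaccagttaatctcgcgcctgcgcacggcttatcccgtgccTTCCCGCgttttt

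The E-box letters begin at base -170 from the start, and the TTCCCGC letters begin at base -3 and run across the start. Both motifs were searched on both strands in the same 260-base window of 32851 promoters, and they do not overlap each other here. CACGTG was present in 6.34% of these promoters, TTCCCGC in 3.97% and both in 0.371%, which is 122 promoters. The motifs were chosen with the sequence in view, and a match describes letters, not binding. Of the 9 genes, 6 had an entry in the promoter table. The starts used for Stag1 and Rec8 also lay within their gene spans. TTCCCGC was also present once in the windows of Stag1 and Smc1b, and CACGTG in no other member's window. The Stag3 window held 28 CpG dinucleotides, Stag1 34, Smc3 27, Smc1b 26, Smc1a 18 and Rec8 11, against a median of 6 over all promoters. The windows of Stag1, Smc3 and Smc1b, and not only that of Stag3, were thus rich in CpG. The share of promoters holding fewer was 95.8%, 90.2% and 89.1% for these, and 91.3% for Stag3.

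Stag3 read 104 and 124 on the wild-type arrays and 854 and 910 on the Ezh2 KO arrays. Both Ezh2 KO arrays were far above both wild-type arrays, and the lower of them was 6.86 times the higher wild-type value. The group means were 114 ± 14.5 and 882 ± 39.6, a ratio of 7.72. On the scale of intensity plus 16 the difference was 6.91-fold, a log2 change of 2.79 (SE 0.14). This was rank 7 among the log2 changes of all probe sets tested. The log2 change was 2.94 when 1 was added in place of 16 and 2.41 when 64 was added, and 2.68 to 2.90 when either wild-type array was left out. A single probe set names Stag3, so no second reading of the transcript was available for comparison. In these bulk samples a larger number of cells with Stag3 RNA and more Stag3 RNA per cell cannot be told apart.

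**Figure D1:**
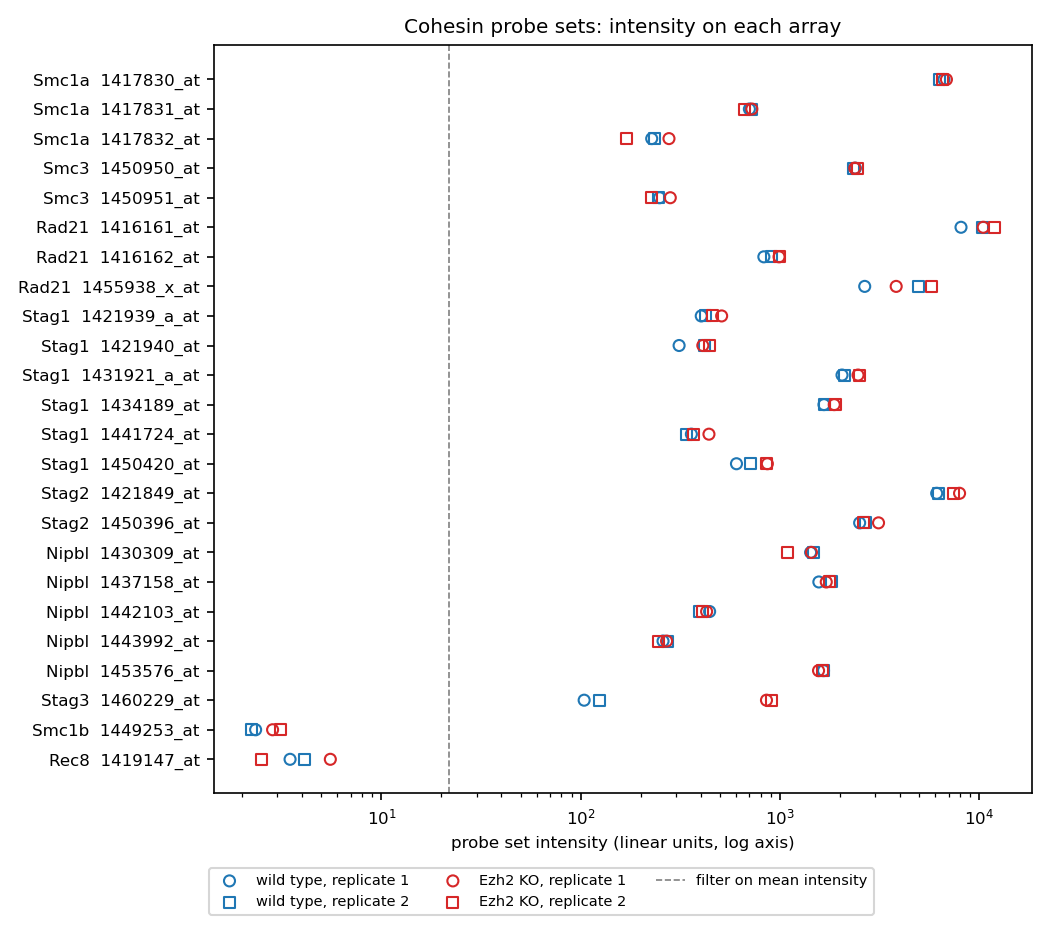
Intensity of each of the 24 cohesin probe sets on the 4 arrays, on a log axis, with the intensity filter of 21.9 as a dashed line. For Stag3 the wild-type arrays lie at 104 and 124 and the Ezh2 KO arrays at 854 and 910, and Smc1b and Rec8 lie left of the filter on all 4 arrays.

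The other subunits of meiotic cohesin were at the bottom of the intensity range in both groups. Smc1b, the meiotic SMC1 form, read 2.34 and 2.23 in the wild type and 2.84 and 3.12 in Ezh2 KO. Rec8, the meiotic kleisin, read 3.48 and 4.13 in the wild type and 5.54 and 2.51 in Ezh2 KO. All 8 values were well below the filter of 21.9, so neither probe set was tested and the order of these values is not read. Each gene has a single probe set, and an intensity this low cannot be told from background here. Thus of the 3 meiotic subunits, Stag3 alone had signal above the filter, and it had it in both groups.

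The remaining 6 genes, those of somatic cohesin and its loader, had 21 probe sets, and all 21 passed the filter. One of them, a Stag2 probe set, was called at an adjusted p under 0.05 in the limma fit, and it was higher in Ezh2 KO. This is 4.76% of the 21, against 7.31% of all probe sets tested, so the share of calls among these members is no larger than in the array as a whole. None was called lower. At an unadjusted p under 0.05 there were 5 higher (23.8%) and 0 lower, against 11.5% higher and 9.51% lower of all probe sets tested. The median log2 change of the 21 was 0.14, with a range from -0.21 to 0.38, and the median over all probe sets tested was 0.04. Positive log2 changes were found for 15 of the 21, against 55.1% of all probe sets. Both Ezh2 KO arrays lay above both wild-type arrays for 8 of the 21 (38.1%), against 27.9% of all probe sets tested. They lay below for 1, and the groups overlapped for 12, counts for which no share over all probe sets is given here.

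**Figure D2:**
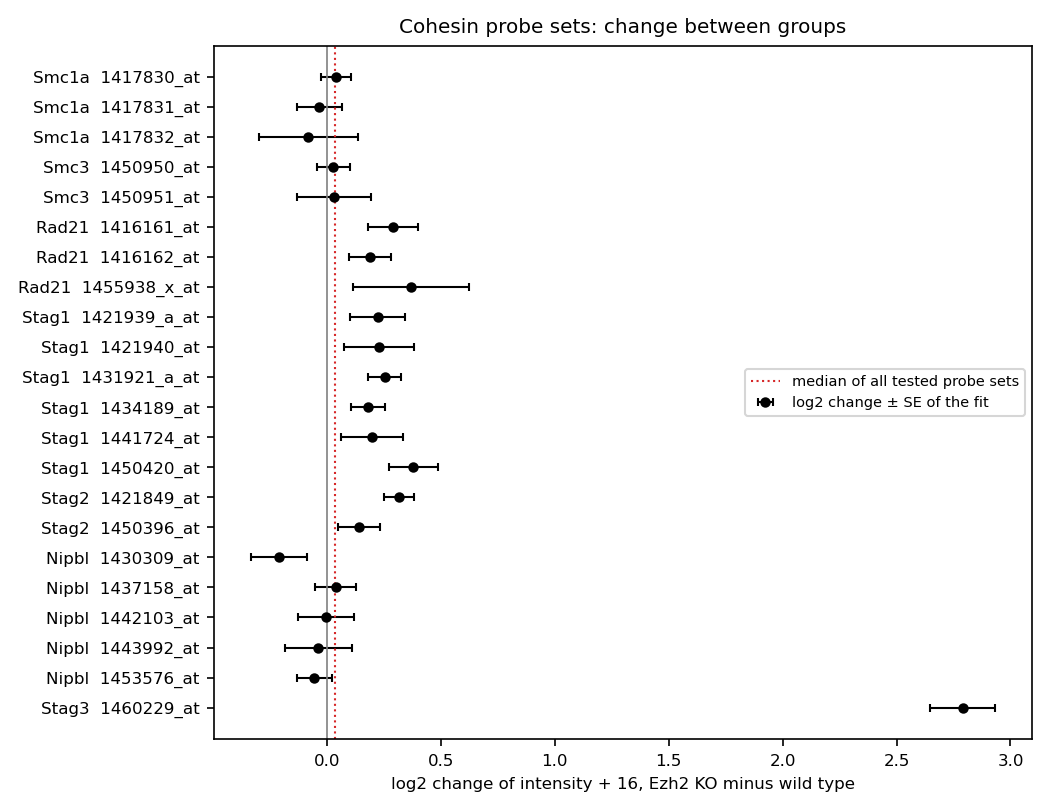
Log2 change of each tested cohesin probe set, Ezh2 KO minus wild type, with the standard error of the limma fit as bars and the median of all tested probe sets as a dotted line. The somatic members lie between -0.21 and 0.38, and Stag3 lies at 2.79.

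Among the ring subunits, the SMC genes had overlapping readings in the 2 groups. Smc1a on the X chromosome encodes the somatic SMC1 ATPase. Its brightest probe set, 1417830_at, read 6630 and 6328 in the wild type and 6825 and 6495 in Ezh2 KO, which gave a log2 change of 0.04 (SE 0.06; adjusted p from limma = 0.799). The groups overlapped, as they did for its other probe sets, which had log2 changes of -0.03 and -0.08. The dimmest of these, 1417832_at, differed more between the Ezh2 KO arrays (277 and 170) than between the groups. Smc3 on chromosome 19 encodes the partner ATPase shared by somatic and meiotic rings. Its brighter probe set 1450950_at read 2384 and 2337 in the wild type and 2367 and 2449 in Ezh2 KO, a log2 change of 0.03 (SE 0.07, adjusted p = 0.874). The dimmer 1450951_at had the same log2 change of 0.03, with a wider SE of 0.16. For both genes the groups overlapped on every probe set.

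Rad21, on chromosome 15, encodes the somatic kleisin that closes the ring and is cut by separase at anaphase. Its probe set 1416161_at read 8077 and 10329 in the wild type and 10443 and 11937 in Ezh2 KO, which gave 0.29 on the log2 scale (SE 0.11, limma adjusted p = 0.167). The groups did not overlap, but only a small gap separated the higher wild-type reading from the lower Ezh2 KO reading. The dimmer 1416162_at read 828 and 906 in the wild type and 988 and 990 in Ezh2 KO, a log2 change of 0.19 (SE 0.09, adjusted p = 0.290). The third, 1455938_x_at, read 2656 and 4936 in the wild type and 3820 and 5731 in Ezh2 KO, so the groups overlapped (log2 change 0.37, SE 0.25, adjusted p = 0.474). The suffix _x_at marks a probe set some of whose probes may also match other transcripts.

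On all 3 Rad21 probe sets replicate 2 read higher than replicate 1 within both groups, for 1416162_at in Ezh2 KO by a log2 difference of only 0.004. The same order was found for 8 of the 21 somatic cohesin probe sets (38.1%) and for 23.0% of all probe sets tested. For 1455938_x_at that within-group log2 difference was 0.89 in the wild type and 0.58 in Ezh2 KO, larger than its difference between the groups. Among 7116 probe sets with a mean above 1000, the median absolute difference within the groups was 0.08 in both the wild type and Ezh2 KO. A difference as large as that of 1455938_x_at was found in 0.0984% of them in the wild type and 0.197% in Ezh2 KO. Without wild-type replicate 1 its log2 change was -0.08, and without wild-type replicate 2 it was 0.81 (adjusted p = 0.0296). It was 0.66 without Ezh2 KO replicate 1 (adjusted p = 0.0474). For 1416161_at the change was 0.47 without wild-type replicate 2 (adjusted p = 0.0204) and 0.39 without Ezh2 KO replicate 1 (adjusted p = 0.0311). With all 4 arrays none of the Rad21 probe sets was called.

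Of the somatic STAG genes, Stag2 had 1 called probe set of 2 and Stag1 had 0 of 6. Stag2, on the X chromosome, encodes the STAG protein of most somatic cohesin in many cell types. Its probe set 1421849_at read 6100 and 6227 in the wild type and 7943 and 7433 in Ezh2 KO, so both Ezh2 KO arrays were higher. It rose 1.25-fold from 6163 ± 90.3 to 7688 ± 361 (log2 change 0.32, SE 0.06, limma adjusted p = 0.0192). The second probe set 1450396_at read 2505 and 2675 in the wild type and 3115 and 2616 in Ezh2 KO, so the groups overlapped (log2 change 0.14, SE 0.09, adjusted p = 0.445). The call of 1421849_at was lost with median centring (0.22, adjusted p = 0.290), without a filter (adjusted p = 0.0536) and with the mean of both probe sets (0.23, adjusted p = 0.0978). Leaving out an array ended it as well for wild-type replicate 1 (0.30, adjusted p = 0.0987), wild-type replicate 2 (0.33, adjusted p = 0.0540) or Ezh2 KO replicate 1 (0.27, adjusted p = 0.0682). The direction was the same at each of these settings.

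Stag1, on chromosome 9, encodes the other somatic STAG protein, which works in cohesion at telomeres and in chromatin loops. All 6 of its probe sets had a positive log2 change, from 0.18 to 0.38, and none passed the adjusted threshold. The brightest, 1431921_a_at, read 2043 and 2106 in the wild type and 2459 and 2492 in Ezh2 KO, which gave 0.25 on the log2 scale (SE 0.07, limma adjusted p = 0.0672). The largest change was that of 1450420_at, which read 604 and 712 in the wild type and 863 and 852 in Ezh2 KO (0.38, SE 0.11, adjusted p = 0.0697). For 1434189_at the readings were 1659 and 1662 against 1868 and 1898 (0.18, SE 0.07, adjusted p = 0.203). In these 3, and in 1421939_a_at and 1441724_at, both Ezh2 KO arrays lay above both wild-type arrays. Only 1421940_at overlapped, at 311 and 418 in the wild type and 409 and 443 in Ezh2 KO. The 6 probe sets are assigned to 1 gene and were read in the same 4 samples, so they are not independent of each other. Their mean had a log2 change of 0.24 (limma adjusted p = 0.133). With 1 probe set per gene, that of highest mean, both Stag1 (limma adjusted p = 0.0377) and Stag2 were called higher. At that setting limma called 1639 of all 13928 probe sets tested, against 2303 of 31526 in the main fit.

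**Figure D3:**
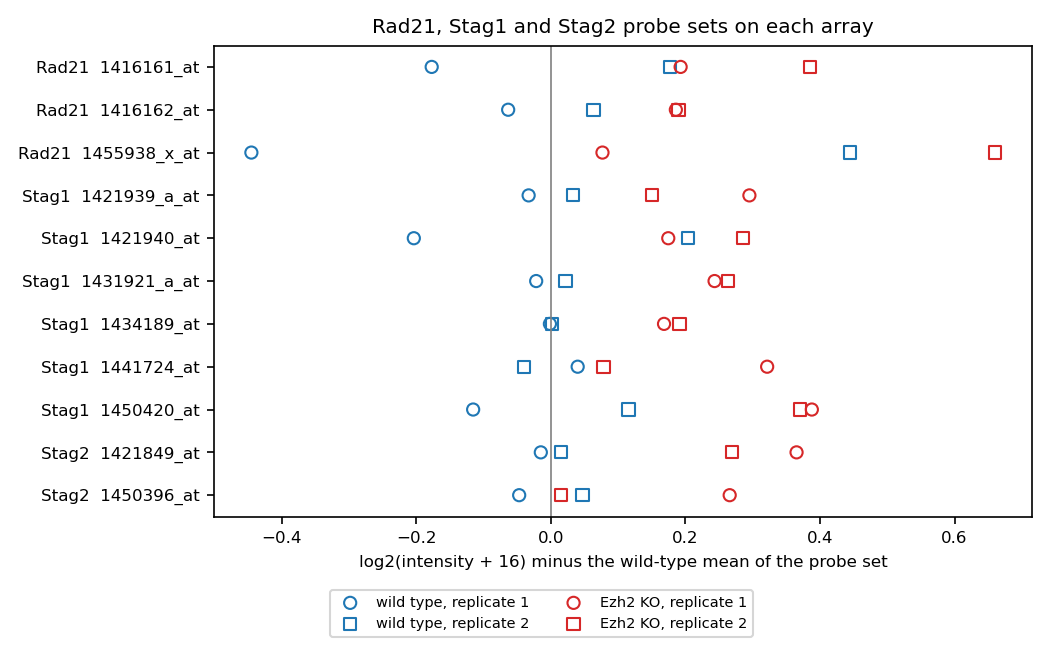
Log2(intensity + 16) of the Rad21, Stag1 and Stag2 probe sets on each array, relative to the wild-type mean of the probe set, with circles for replicate 1 and squares for replicate 2. The Ezh2 KO arrays lie right of both wild-type arrays for 5 of 6 Stag1, 1 of 2 Stag2 and 2 of 3 Rad21 probe sets. Over all probe sets tested this held for 27.9%. On the Rad21 rows each square lies right of the circle of its group, by only 0.004 for 1416162_at in Ezh2 KO. Replicate 2 was higher in both groups for 23.0% of all probe sets tested.

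Nipbl, on chromosome 15, encodes the cohesin loader, whose loss of a single copy causes Cornelia de Lange syndrome in humans. Of its 5 probe sets 4 had a negative log2 change and 1 a positive one, with a median of -0.04. The bright probe set 1437158_at read 1564 and 1814 in the wild type and 1704 and 1760 in Ezh2 KO (0.04, SE 0.09, limma adjusted p = 0.860). For 1453576_at both Ezh2 KO arrays, at 1558 and 1623, lay just below the wild-type arrays at 1650 and 1655 (-0.05, SE 0.08, adjusted p = 0.761). The lowest change was that of 1430309_at, which read 1422 and 1469 in the wild type and 1435 and 1085 in Ezh2 KO, where replicate 2 alone was low (-0.21, SE 0.12, adjusted p = 0.384). Without Ezh2 KO replicate 1 this became -0.41 (adjusted p = 0.0410). The dimmer 1442103_at and 1443992_at overlapped between the groups, with log2 changes near 0 (-0.0014 and -0.04).

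Among other genes that act on cohesin, few probe sets were called. A list of 17 loading, release, acetylation, protection and cleavage factors had 34 tested probe sets, of which limma called 1 higher and 0 lower (2.94%, against 7.31% of all). At an unadjusted p under 0.05 there were 8 higher (23.5%) and 0 lower, against 11.5% and 9.51% of all, and the median log2 change was 0.10. The called probe set was 1456492_at of Mau2, the partner of Nipbl in the loading complex, which went from 213 ± 23.1 to 388 ± 56.2 (log2 change 0.81, SE 0.16, adjusted p = 0.0157). The other 3 probe sets of Mau2 did not share this, with log2 changes of -0.14, -0.23 and 0.27, and the mean of all 4 was 0.18 (adjusted p = 0.521). Leaving out wild-type replicate 2 (0.71, adjusted p = 0.0558) or Ezh2 KO replicate 1 (0.67, adjusted p = 0.0736) ended the call too.

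The relatives of cohesin, condensin and the SMC5/6 complex, had 13 genes and 35 tested probe sets, with 1 called higher and 0 lower (2.86%). At an unadjusted p under 0.05 there were 9 higher (25.7%) and 2 lower (5.71%), against 11.5% and 9.51% of all, and the median log2 change was 0.14. The called probe set was 1429171_a_at of Ncapg, a subunit of condensin I, which went from 1434 ± 55.3 to 1820 ± 84.4 (0.34, SE 0.08, limma adjusted p = 0.0360). The second Ncapg probe set had -0.14, and their mean had 0.10 (adjusted p = 0.593). The call was lost with median centring (0.24, adjusted p = 0.267), without a filter (adjusted p = 0.0623), and without wild-type replicate 1, wild-type replicate 2 or Ezh2 KO replicate 2 (0.38, 0.30 and 0.29).

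Genes of meiosis and the germ line were examined beside Stag3. Of 34 such genes on the array, 21 were below the filter, among them the synaptonemal complex genes Sycp1, Sycp2 and Sycp3. The 13 genes above it had 15 probe sets, of which limma called 0 higher and 2 lower (13.3%, against 7.31% of all), with 0 higher and 3 lower (20.0%) at an unadjusted p under 0.05, against 11.5% and 9.51% of all. Their median log2 change was -0.02. Several of these probe sets had means near the filter of 21.9 and wide SEs. Spo11 had means of 19.2 in the wild type and 26.1 in Ezh2 KO (SE 0.47). Piwil1 had 18.0 and 28.5 (SE 0.58). The lack of a call says little for probe sets this dim. Both called probe sets belonged to Dmc1, the meiotic recombinase that pairs homologous DNA strands. Its probe set 1449819_at read 426 and 410 in the wild type and 67.5 and 72.9 in Ezh2 KO, a 5.03-fold fall (log2 change -2.33, SE 0.17, adjusted p = 8.08e-05). The second, 1420335_at, read 403 and 302 in the wild type and 199 and 106 in Ezh2 KO (-1.17, SE 0.26, adjusted p = 0.0272). Its call was lost without a filter, where 1449819_at alone of the list was called lower (limma adjusted p = 0.00161). Dmc1 thus fell on the same arrays on which Stag3 read higher.

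**Figure D4:**
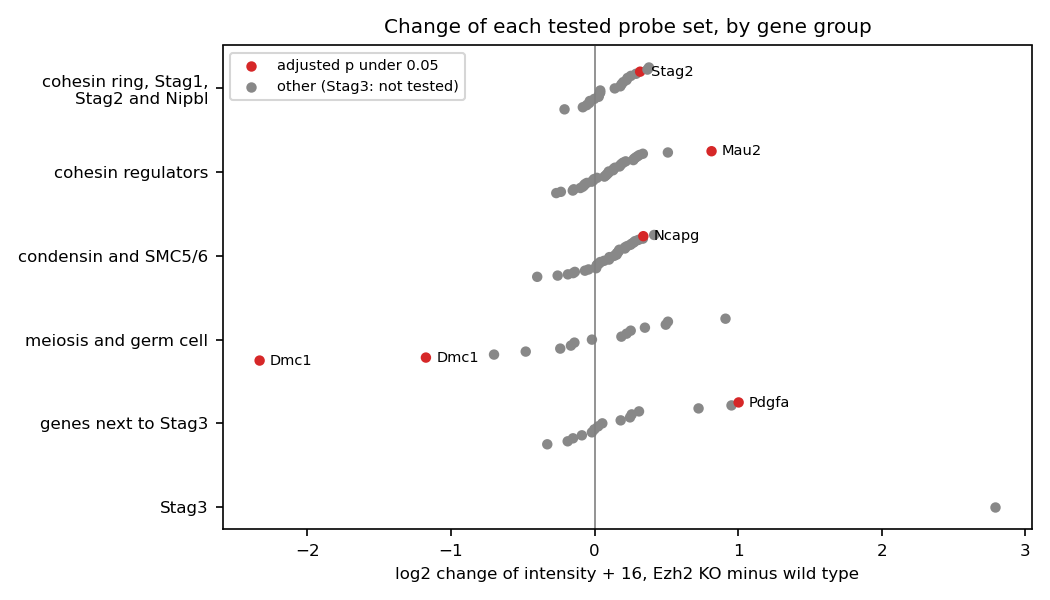
Log2 change, Ezh2 KO minus wild type, of each tested probe set of the somatic cohesin genes, the cohesin regulators, condensin and SMC5/6, the meiosis and germ cell list, the genes next to Stag3 and Stag3, with probe sets called by limma in red and named. Stag3 at 2.79 lies apart from every other point, and the Dmc1 probe sets lie at -2.33 and -1.17.

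The genes around Stag3 on chromosome 5 were examined as its neighbours. The 5 nearest genes on each side with a probe set had 15 probe sets, all above the filter, with log2 changes from -0.33 to 1.00 and a median of 0.05. The closest is Gpc2, a cell surface glypican. Its span of 138273657 to 138280026 lies within the span given for Stag3 and ends 483 bases before the start used above. Gpc2 is on the minus strand with its promoter-table start at 138279937, so it and Stag3 are transcribed in opposite directions. Gpc2 read 34.2 and 47.2 in the wild type and 69.4 and 85.3 in Ezh2 KO, so its groups did not overlap, but it did not pass the test (0.72, SE 0.32, limma adjusted p = 0.237). Limma called 1 of the 15 neighbour probe sets (6.67%, against 7.31% of all, a share near that of the whole array), 1449187_at of Pdgfa, a platelet-derived growth factor gene that lies 663617 bases away. It read 50.3 and 60.9 in the wild type and 129 and 125 in Ezh2 KO (1.00, SE 0.26, adjusted p = 0.0464), and its call was lost when any 1 of the 4 arrays was left out, with an adjusted p of 0.0682 to 0.169. It was also lost with quantile normalization (0.92, adjusted p = 0.0684) and with median centring (0.91, adjusted p = 0.0713). The second Pdgfa probe set, 1418711_at, read 31.3 and 84.0 in the wild type and 99.2 and 138 in Ezh2 KO. Its log2 change had the same direction but was not called (0.95, SE 0.37, limma adjusted p = 0.178). The mean of both Pdgfa probe sets had 0.98 (adjusted p = 0.0695). Besides 1449187_at, no neighbour probe set was called.

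By the Euclidean distance between log2 profiles over the 4 arrays, each centred on its own mean, the genes closest to Stag3 were Yes1, Cdk5rap1, Tcf24, Gm6958 and Pik3ap1. Yes1, a Src family kinase gene, was nearest at a distance of 0.23, with 52.0 and 56.6 in the wild type and 380 and 437 in Ezh2 KO. Cdk5rap1, a tRNA modification gene, followed at 0.27, with 384 and 360 against 2332 and 2490. The others lay at 0.43, 0.43 and 0.44. With 4 arrays this distance mainly reflects a similar size of the difference between the groups.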

How the data were processed

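The authors' deposited values are probe set intensities. Per the submitters' processing notes they were made with Affymetrix Expression Console; its version, the summary algorithm and a genome build are not given in the sources used here. Each deposited array had a mean of 500.003 after trimming 2% at each end, so the intensities had been scaled per array, which removes differences in total mRNA per cell. Total RNA equivalent to 10000 cells was labelled, per the labels' protocols. Of 45101 probe sets, 64 controls were left out. Of the 45037 others, 34945 had 1 gene symbol, 932 had more than 1, and 9160 had no entry in the gene table. Probe sets with a mean above the 30th percentile, an intensity of 21.9, were tested on log2(intensity + 16), with no normalization added, using lmFit and eBayes of limma 3.58.1 (R 4.3.3) with a prior variance trended on intensity. Adjustment (Benjamini-Hochberg) ran over all 31526 probe sets at a threshold of 0.05, and the fit had 2 residual degrees of freedom, 9.3 with the prior. Detection calls and probe positions were not analysed here. The fit was tested on data simulated from its own prior variance, which cannot show whether that prior suits these arrays.

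The members, the gene lists and the tests were chosen with earlier results of these data known. The text names every member probe set, of each pathway list and of the myeloid marker list up to 4 called genes with the largest change, the neighbours of Stag3 and the 5 profiles closest to it; of the neighbours, Gpc2 and Pdgfa were singled out after their values were seen. The other marker lists, in which none was called, are given as sums, with the brightest probe set of the B cell and of the stromal and endothelial list. Other settings were pseudocounts of 1 and 64, quantile normalization or median centring, a filter at the 50th percentile or none, 1 probe set per gene or the mean of all, a single or robust prior, a replicate block, a threshold of 0.10, and leaving out each array. Figures were drawn with Python 3.11.15 and matplotlib 3.10.9.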

Additional observations from a re-analysis of the deposited data

How the results depend on the processing

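The log2 change of Stag3, 2.79, kept its direction at every setting and was 2.94 with a pseudocount of 1, 2.41 with one of 64 and 2.68 to 2.90 with 1 array left out. Of the 21 probe sets of the somatic cohesin genes, 1 was called higher. That count was 0 with median centring, with no filter, with the mean of probe sets per gene and with a single prior variance, at which limma called 0 of all 31526 probe sets (4978 at an unadjusted p under 0.05). Over the array, limma called 2303 of 31526 in the main fit. It called 1730 of 31526 with median centring, 1392 of 45037 with no filter and 1002 of 13202 with the mean per gene. With the filter at the 50th percentile it called 2681 of 22518, and with the highest probe set per gene 1639 of 13928. The somatic cohesin count was 2 with the filter at the 50th percentile and 2 with the highest probe set per gene. It was 3 at an adjusted p under 0.10. With 1 array left out it was 0 (without wild-type replicate 1) to 3 (without wild-type replicate 2), and the count called lower was 0 to 1. The array left alone in its group is then assumed to vary like those of the other group.

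The replicate numbers were used as a replicate block in 1 fit. Same-numbered arrays are otherwise taken to share only a number. Their deviations correlated at 0.036, a value over all tested probe sets that cannot show whether some of them share a replicate effect. The replicate block gave 5 somatic cohesin probe sets higher, adding 1416161_at and 1455938_x_at of Rad21 (limma adjusted p = 0.00639 and 0.00459) and 1431921_a_at and 1450420_at of Stag1 (0.0329 and 0.0265) to that of Stag2 (0.00357), and 3715 in place of 2303 calls over the array. It gave 2 higher for the cohesin regulators, and 3 higher and 1 lower for condensin and SMC5/6.

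For the cohesin regulators, 1 higher call became 0 with a single prior variance and 0 to 2 with 1 array left out. For condensin and SMC5/6, 1 higher call became 2 with quantile normalization and with the filter at the 50th percentile, and 0 with median centring, no filter or a single prior variance; with 1 array left out the counts were 0 to 2 higher and 0 to 1 lower. For the meiosis list, 2 lower calls became 3 with the filter at the 50th percentile, a robust prior or the replicate block, 1 with no filter and 0 with a single prior variance, and were 1 to 2 with 1 array left out, with 0 to 1 higher.

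Changes near 0 turned sign without being called. With median centring 1417830_at of Smc1a had -0.057, the Smc3 probe sets 1450950_at and 1450951_at -0.068 and -0.065, and 1437158_at of Nipbl -0.057. With quantile normalization 1450951_at had -0.031. The mean of probe sets was -0.025 for Smc1a and -0.052 for Nipbl. With 1 array left out, the ranges were -0.091 to 0.025 for 1417831_at and -0.41 to 0.25 for 1417832_at of Smc1a, -0.11 to 0.18 for 1450951_at of Smc3, and -0.066 to 0.15 for 1437158_at, -0.080 to 0.077 for 1442103_at and -0.097 to 0.024 for 1443992_at of Nipbl. For 1455938_x_at of Rad21 the range was -0.077 to 0.81, with calls at the upper end. The cause of these differences was not tested. Dim probe sets limit what can be seen: Smc1b and Rec8 were below the filter.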
